A study of Mus musculus with 9 samples.

Results

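The 8 genes Serpina3g, Hpse, Palm, Slc6a8, Tns3, Baiap2, Syngr1 and Aif1 were followed across 3 sorted macrophage populations of the mouse lung, to ask whether each rose stepwise and what share of the Tumor-macrophage level Tumor-AM reached. They were selected by name as genes with raised expression in Tumor-AM, and grouped as rising along both populations, on these same samples. Their levels and differences are therefore given as a description and without tests. They are 8 of 24346 gene symbols measured, and all 8 were among the 10686 genes that passed a filter of at least 1 FPKM in at least 3 samples. FPKM is a read count corrected for the length of the transcript and for the size of the library. For 5 of the 8 genes no Ctrl-AM sample reached 1 FPKM, and Baiap2 and Aif1 reached it in fewer than 3 Ctrl-AM samples. All but Syngr1 thus passed the filter with the help of the tumor-bearing groups.

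The samples came from C57BL/6 mice at postnatal week 10, in 3 groups of 3 samples. Ctrl-AM were alveolar macrophages (AMs) of mice given vehicle, Tumor-AM were AMs of mice whose left lung had been inoculated with tdTomato-labelled Lewis lung carcinoma (LLC) cells, a lung cancer line that grows in this strain, and Tumor-macrophage were the tumor-associated macrophages (TAMs) of such mice. All were sorted as CD45+ autofluorescent cells, AMs as Siglec-F+ and TAMs as Siglec-F- F4/80+. LLC was the single cancer line in these libraries, control and tumor-bearing mice were bred apart according to the methods, and any effect of breeding cannot be told apart from that of the tumor.

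AMs live in the air spaces, where they take up surfactant and inhaled particles, and they maintain themselves locally. TAMs descend largely from blood monocytes and commonly remodel matrix, migrate and present antigen. The 8 genes belong to several such activities. Serpina3g is an inhibitor of proteases, cathepsins included, and Hpse (heparanase) cuts the heparan sulfate chains of the matrix. Palm (paralemmin), Baiap2 (IRSp53), Tns3 (tensin 3) and Aif1 (IBA1) act at the membrane and the actin skeleton. Slc6a8 carries creatine into the cell, and Syngr1 (synaptogyrin 1) is a membrane protein of small vesicles.

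Depth was even. An estimated 11100000 to 14000000 reads lay behind each library, with relative depths of 0.904 to 1.14. At that depth 1 FPKM stood for 7.5 to 9.46 reads of Aif1, which has the shortest main transcript of the 8, and for 80.9 to 102 reads of Tns3, which has the longest. The AM markers, Siglecf among them (8 of 8 detected), summed to 28220 to 33660 FPKM over the Ctrl-AM samples. The sums were 24670 to 41010 over Tumor-AM and 250.4 to 562.9 over Tumor-macrophage. Chil3 was the largest part of each sum, with means of 25740, 26230 and 236.4 FPKM in the 3 groups. Means of Siglecf were 201.4, 171.5 and 0.6514 FPKM. From Tumor-AM to Tumor-macrophage, Mrc1 (136.7 to 69.97 FPKM) and Siglec1 (40.47 to 17.03) fell least among the 8.

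The promoters of the genes are shown first for the pair that reached the lowest shares of the Tumor-macrophage level in Tumor-AM, Aif1 and Serpina3g, and then for the pair that reached the highest, Baiap2 and Palm. Each window runs from 250 bases before to 50 bases after the RefSeq start site, on GRCm38.p6 and 5′ to 3′ on the strand of the gene, and capitals mark matches to the searched motifs. RefSeq gave windows for 7 of the 8 genes, all but Slc6a8.
Aif1, chr17:35176003-35176302, minus strand: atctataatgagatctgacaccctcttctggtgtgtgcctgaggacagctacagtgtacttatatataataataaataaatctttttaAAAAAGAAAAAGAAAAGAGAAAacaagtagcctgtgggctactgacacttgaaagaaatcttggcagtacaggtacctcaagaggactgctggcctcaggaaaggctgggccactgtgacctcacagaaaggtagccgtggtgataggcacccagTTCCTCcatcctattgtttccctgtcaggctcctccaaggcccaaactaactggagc
Serpina3g, chr12:104235897-104236196, plus strand: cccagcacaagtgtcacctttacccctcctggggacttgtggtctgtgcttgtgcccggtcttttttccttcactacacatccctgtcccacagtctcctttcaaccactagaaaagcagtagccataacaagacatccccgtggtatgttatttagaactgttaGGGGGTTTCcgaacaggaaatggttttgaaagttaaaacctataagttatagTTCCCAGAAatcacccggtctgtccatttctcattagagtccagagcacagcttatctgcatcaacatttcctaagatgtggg
Baiap2, chr11:119942842-119943141, plus strand: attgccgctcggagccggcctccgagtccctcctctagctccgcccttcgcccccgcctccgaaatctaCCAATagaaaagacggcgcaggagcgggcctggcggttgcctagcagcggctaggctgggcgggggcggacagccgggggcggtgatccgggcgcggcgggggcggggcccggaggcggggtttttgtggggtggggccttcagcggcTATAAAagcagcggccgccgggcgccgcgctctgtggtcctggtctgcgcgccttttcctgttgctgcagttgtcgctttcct
Palm, chr10:79793322-79793621, plus strand: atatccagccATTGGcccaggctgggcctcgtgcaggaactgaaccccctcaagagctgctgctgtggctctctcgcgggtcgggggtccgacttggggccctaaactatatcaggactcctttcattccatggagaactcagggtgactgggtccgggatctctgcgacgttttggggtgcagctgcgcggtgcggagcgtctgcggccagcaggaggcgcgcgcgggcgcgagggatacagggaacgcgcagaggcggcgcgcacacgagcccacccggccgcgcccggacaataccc

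The first pair was poor in CpG and the second rich in it. The Aif1 window held 1 CpG at 45% GC, and the Serpina3g window held 4 at 45.7%, compared with medians of 7 CpG and 52.7% over 32851 promoter windows. Baiap2 held 34 CpG at 70.3% GC and Palm 29 at 66.7%. The windows of Hpse, Tns3 and Syngr1 were also CpG-rich, with 19, 33 and 38 CpG.

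Motifs were searched on both strands, as letters only. In Aif1 an interferon element (TTTCNNTTT) matched 3 times in overlap, from 162, 156 and 149 bases before the start, and 10.6% of all windows held this motif. An ETS core (GAGGAA, in 28.3% of windows) stood 7 bases before the Aif1 start. Serpina3g held an interferon-gamma element (TTCNNNGAA) at 33 bases and an NF-kappaB motif (GGGNNTTTC) at 85 bases before its start, found in 8.3% and 4.36% of windows. Baiap2 held a TATA box (TATAAA, 13.6%) at 33 bases and a CCAAT box (CCAAT, 37.4%) at 181 bases, and Palm held a CCAAT box at 240 bases. Syngr1 held a C/EBP motif (TTGCNNAA, 10.8%) and Hpse a hypoxia element (ACGTG, 19.6%). An AP-1 motif (TGANTCA, 7.81%) and an E-box (CACGTG, 7.15%) were in 0 of the 7 windows, and the Tns3 window held no searched motif. These matches are descriptions of sequence and not sites shown to be bound.

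The 8 genes lie at separate loci of GRCm38 (GENCODE vM21). Serpina3g (chromosome 12, 104236245 to 104241939) sits in a cluster of closely related serpin genes, and 8.91% of the 75-base windows of its main transcript also occur in other genes, among them Serpina3h, Serpina3f and Serpina3i. Reads from these windows could have been split between the copies. The main transcripts of the other genes shared 0% of such windows with other genes. Hpse lies on chromosome 5 (100679484 to 100719716), Palm on 10 (79793572 to 79820896), Slc6a8 on X (73673150 to 73682502), Tns3 on 11 (8431652 to 8664535), Baiap2 on 11 (119942763 to 120006782), Syngr1 on 15 (80091334 to 80119501) and Aif1 on 17 (35170991 to 35176068). Syngr1 overlaps Rpl3, and Palm an antisense gene, with 0 exon bases in common in either case.

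Next, expression was compared across the 3 groups. For all 8 genes, every Tumor-AM sample was above every Ctrl-AM sample, a pattern found in 18.9% of all genes tested. For 7 of 8, Tumor-macrophage was above Tumor-AM without overlap as well, against 27.6% of all genes. Both steps together were seen in 7 of 8 members and in 8.3% of all genes, and since the members were chosen for being raised, nothing follows from these counts. Palm was the exception and did not follow the description of genes rising along both populations. The mean rise from Ctrl-AM to Tumor-AM ran from 2.91-fold (Aif1) to 21.3-fold (Serpina3g), and from Tumor-AM to Tumor-macrophage from 1.32-fold (Palm) to 161.4-fold (Aif1). In these bulk samples, a change in the number of expressing cells and a change in RNA per cell cannot be told apart.

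**Figure D1:**
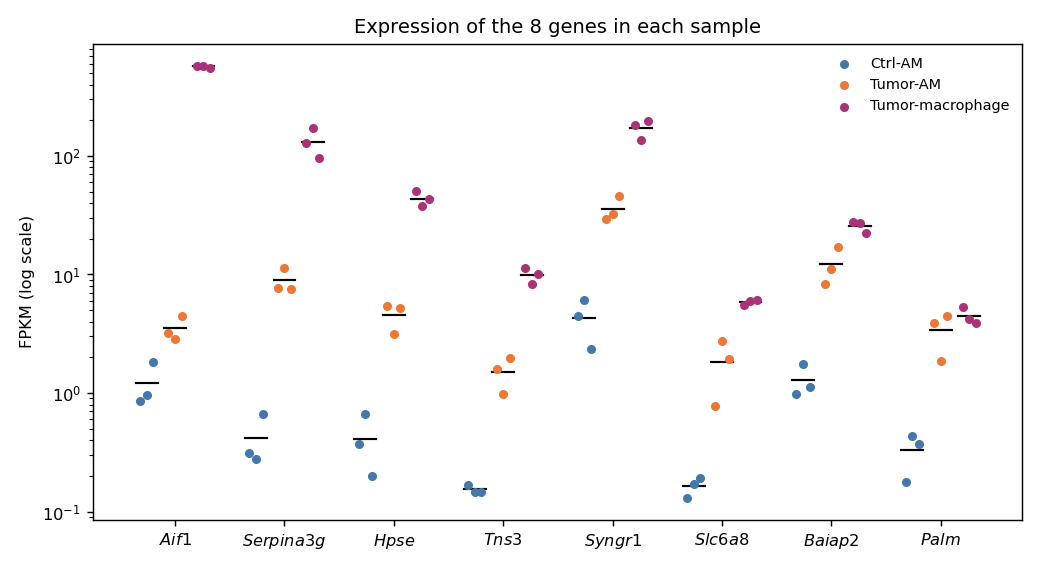
FPKM (log scale) of the 8 genes in each of the 9 samples, with points for samples, colors for the 3 groups and black bars for group means. The groups are separate at both steps for 7 genes, and Palm overlaps between Tumor-AM and Tumor-macrophage.

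Serpina3g, the protease inhibitor, was below 1 FPKM in AMs of control mice. Its level was 0.314, 0.276 and 0.67 FPKM in the Ctrl-AM samples, 7.73, 11.4 and 7.61 in those of Tumor-AM, and 127.3, 170.5 and 95.4 in those of Tumor-macrophage. The lowest Tumor-AM sample was 11.4 times the highest Ctrl-AM sample, and the lowest Tumor-macrophage sample was 8.34 times the highest Tumor-AM sample. On the log2(FPKM + 1) scale, which understates changes of low genes, the steps were 2.80 ± 0.22 and 3.72 ± 0.22 (SE of the fit, n = 3 per group). Mean Tumor-AM expression was 6.81 ± 1.48% of the Tumor-macrophage level (SE), and the 9 ratios of single samples ran from 4.46% to 11.99%.

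Hpse, the heparan sulfate-cutting enzyme, showed the same order. Its level was 0.368, 0.67 and 0.199 FPKM in the Ctrl-AM samples, 5.41, 3.13 and 5.18 in those of Tumor-AM, and 50.4, 37.7 and 43.1 in those of Tumor-macrophage. Each group lay wholly above the one before it. The log2 steps were 1.97 and 3.02 (SE 0.19 each), and Tumor-AM reached 10.5 ± 1.88% of the Tumor-macrophage level (SE).

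Of the genes of the membrane and the actin skeleton, Palm and Baiap2 took most of their log2 rise within AMs. Paralemmin is a lipid-anchored protein of the inner plasma membrane. Palm was at 0.176, 0.438 and 0.371 FPKM in the Ctrl-AM samples, 3.86, 1.86 and 4.48 in those of Tumor-AM, and 5.35, 4.24 and 3.91 in those of Tumor-macrophage. Tumor-AM 3 exceeded 2 of the 3 Tumor-macrophage samples, and Tumor-AM 2 was the lowest of its group. The steps were 1.68 and 0.37 (SE 0.23 each), and the share was 75.6 ± 19.0% (SE), with single ratios from 34.9% to 114.4%. Without Tumor-AM 3 the groups no longer overlapped, and the count of genes rising without overlap at both steps became 8 of 8. Without Tumor-AM 2 the second step of Palm was 0.083.

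Baiap2 encodes an I-BAR protein that bends membranes outward and couples small GTPases to actin assembly. It was at 0.977, 1.74 and 1.11 FPKM in the Ctrl-AM samples, 8.28, 11.2 and 17.0 in those of Tumor-AM, and 27.8, 27.0 and 22.5 in those of Tumor-macrophage. The groups were separate, though the lowest Tumor-macrophage sample was 1.32 times the highest Tumor-AM sample. The steps were 2.49 and 1.07 (SE 0.22 each), and the share was 47.2 ± 10.4% (SE).

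Aif1 took most of its rise between the AM and TAM populations, while for Tns3 the larger step depended on the scale. Tensin 3 links integrin tails to actin. Tns3 was at 0.168, 0.147 and 0.147 FPKM in the Ctrl-AM samples, 1.60, 0.986 and 1.97 in those of Tumor-AM, and 11.4, 8.34 and 10.0 in those of Tumor-macrophage. The groups were separate, with steps of 1.11 and 2.12 (SE 0.17 each) and a share of 15.3 ± 3.19% (SE). By ratios of the means, the rise of Tns3 was 9.86-fold and then 6.52-fold.

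Aif1 encodes IBA1, a calcium-binding protein that bundles actin and is widely used to stain macrophages and microglia. It was at 0.854, 0.963 and 1.82 FPKM in the Ctrl-AM samples, 3.24, 2.87 and 4.49 in those of Tumor-AM, and 577.7, 577.7 and 555.1 in those of Tumor-macrophage. The AM groups were close, with the lowest Tumor-AM sample 1.58 times the highest Ctrl-AM sample, and both were far below TAMs. The steps were 1.04 and 6.99 (SE 0.17 each), and Tumor-AM reached 0.62 ± 0.086% of the Tumor-macrophage level (SE).

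The transporter and the vesicle protein also rose at both steps. Slc6a8, the creatine transporter, was at 0.13, 0.171 and 0.19 FPKM in the Ctrl-AM samples, 0.782, 2.76 and 1.95 in those of Tumor-AM, and 5.48, 6.01 and 6.14 in those of Tumor-macrophage. Its Tumor-AM samples differed most among the 8 genes, the highest being 3.53 times the lowest. The steps were 1.22 and 1.35 (SE 0.23 each), and the share was 31.1 ± 9.82% (SE). Without Tumor-AM 1, the lowest sample, the steps were 1.52 and 1.05.

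Syngr1 was the member with the highest level in Ctrl-AM. It was at 4.44, 6.08 and 2.34 FPKM in the Ctrl-AM samples, 29.5, 32.5 and 45.9 in those of Tumor-AM, and 182.7, 136.1 and 197.0 in those of Tumor-macrophage. The groups were separate at both steps, which were 2.85 and 2.23 (SE 0.26 each). Tumor-AM reached 20.9 ± 3.68% of the Tumor-macrophage level (SE).

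**Figure D2:**
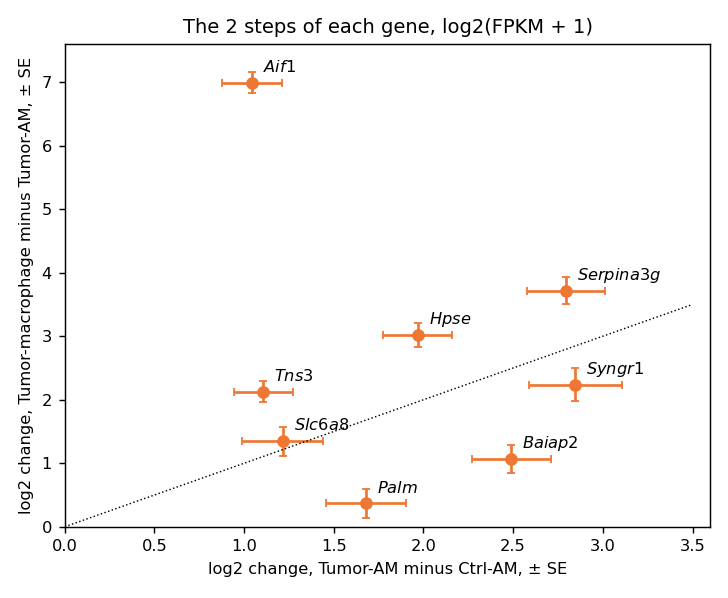
Log2 change of each gene from Ctrl-AM to Tumor-AM (x axis) and from Tumor-AM to Tumor-macrophage (y axis), on log2(FPKM + 1), with SE of the fit; the dotted line marks equal steps. With the pseudocount of 1 used here the second step is the larger for 5 of 8 genes, and by folds of the means the first is the larger for 7 of 8; Aif1 stands apart at 6.99.

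The first step made up 12.99% of the whole log2 rise for Aif1, 34.2% for Tns3, 39.4% for Hpse, 42.9% for Serpina3g, 47.5% for Slc6a8, 56.0% for Syngr1, 69.9% for Baiap2 and 82.1% for Palm. This division depends on the pseudocount, because a smaller pseudocount enlarges the first step of genes that start near 0. With a pseudocount of 1 the second step was the larger for 5 of 8 genes. With 0.1 in place of 1, the steps turned to 4.17 and 3.85 for Serpina3g and to 2.72 and 1.79 for Slc6a8. Those of Hpse (3.26 each) and of Tns3 (2.62 and 2.67) then lay within 0.1 of each other, and Aif1 (1.52 and 7.32) was the 1 gene whose second step was clearly the larger. By folds of the means, the first step was the larger for 7 of 8 genes, all but Aif1.

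Shares of the Tumor-macrophage level do not depend on the pseudocount. Their median was 18.1%, and they ran from 0.62% (Aif1) to 75.6% (Palm). Between these lay Serpina3g, Hpse, Tns3, Syngr1, Slc6a8 and Baiap2, in rising order. The single-sample ratios of Aif1 (0.497% to 0.808%) did not overlap those of Serpina3g, and those of every other neighbouring pair in this order overlapped. Of the 760 genes that Tumor-AM expressed above Ctrl-AM (limma adjusted p under 0.05), 2 were listed at 0 in Tumor-macrophage, and among the other 758 the median share was 73.4% and the quartiles were 34.5% and 118.6%. Palm alone of the 8 was above that median, and 6 of the 8 were below the lower quartile. The 8 were grouped as rising along both populations, and the 760 were taken on the first step alone. Low shares were thus built into the choice of the 8, and nothing follows from their position.

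The study displays 8 other genes beside 7 of these, all but Aif1, as strongly raised in Tumor-AM. Their shares were 6.66% for Mmp14, 10.1% for Vegfa, 11.01% for Gm5424, 18.4% for Oasl2, 20.3% for F13a1 and 34.2% for H2-Q6. Inhba lay the other way, at 330.5 ± 58.3% of the Tumor-macrophage level (SE), with single ratios from 224.3% to 524.8%. Lum had a mean share of 331.8 ± 234.3% (SE), with single ratios from 66.0% to 1491%. Its groups overlapped, at 6.62, 4.95 and 35.1 FPKM in the Tumor-AM samples and 2.36, 4.22 and 7.51 in those of Tumor-macrophage. The high mean of Lum thus rested on Tumor-AM 3. None of the 8 members exceeded 100%.

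**Figure D3:**
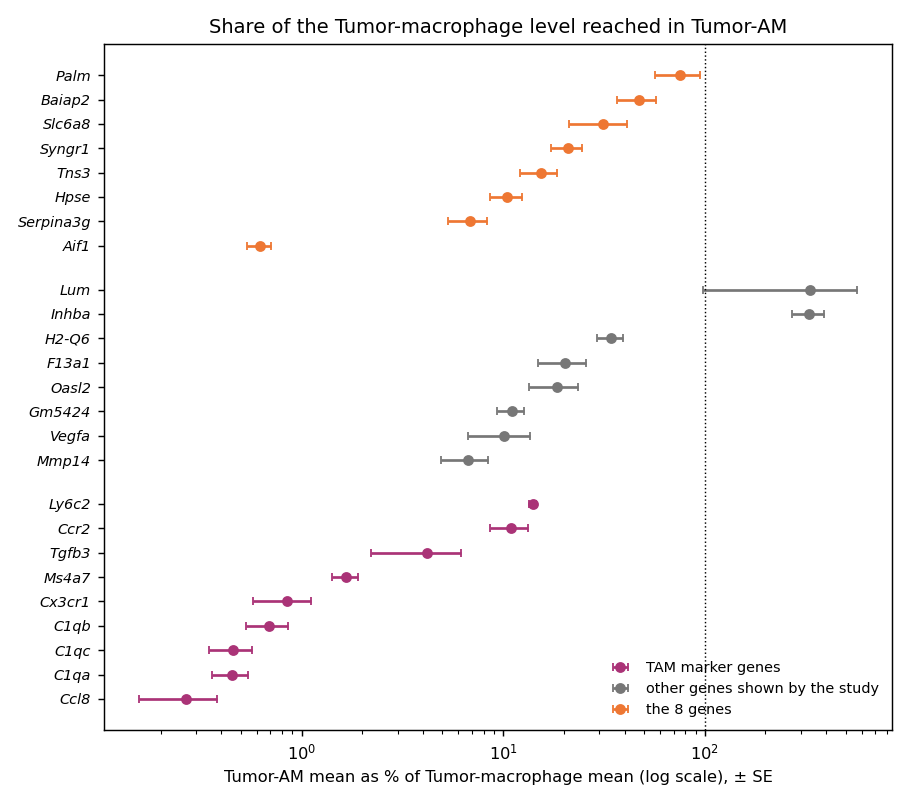
Mean Tumor-AM level as a percentage of the mean Tumor-macrophage level (log scale, ± SE) for the 8 genes, 8 other genes displayed by the study and 9 TAM marker genes; the dotted line marks 100%. Aif1 (0.62%) lies among the complement C1q genes, and the other 7 lie at 6.81% or above.

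TAM marker genes were also higher in Tumor-AM in sum, and their levels are given beside these shares. The 9 markers, all detected, summed to 32.2 to 40.4 FPKM over the Ctrl-AM samples, 89.1 to 162.1 over Tumor-AM and 18340 to 19010 over Tumor-macrophage. The sum of C1qa, C1qb and C1qc, the chains of complement C1q made by many tissue macrophages, was 16.5, 21.5 and 19.7 FPKM in the Ctrl-AM samples and 64.3, 56.4 and 113.7 in those of Tumor-AM. The Tumor-AM sums were 0.473%, 0.416% and 0.837% of the mean in Tumor-macrophage. The other TAM markers had shares of 0.269% for Ccl8, 0.844% for Cx3cr1, 1.66% for Ms4a7, 4.18% for Tgfb3, 10.9% for Ccr2 and 14.0% for Ly6c2.

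For each gene, the excess of Tumor-AM over the Ctrl-AM mean was then set beside a level taken from C1q on the same terms. Above its own Ctrl-AM mean, the C1q sum of the Tumor-AM samples was 0.332%, 0.274% and 0.696% of its rise from Ctrl-AM to Tumor-macrophage, and this percentage of the rise of each gene gave the level. These terms were chosen after seeing the data. For Aif1 the mean excess was 2.32 FPKM and the level 2.47 FPKM, a ratio of 0.939, and the excess was above the level in 2 of 3 samples. The excess of the other 7 genes was above the level in all 3 samples. The genes were chosen as raised in Tumor-AM, so nothing follows from this count. Each ratio sets the share of the rise of the gene over that of C1q, and so restates the shares. The ratio was 15.0 for Serpina3g, 22.1 for Hpse, 32.2 for Tns3, 43.5 for Syngr1, 67.2 for Slc6a8, 102.3 for Baiap2 and 169.6 for Palm. Without subtracting the Ctrl-AM level from C1q and from the Tumor-macrophage mean, the ratio was 0.707 for Aif1 and 11.3 to 118.7 for the others. Other markers would set other levels. The excess of Ccr2 was 7.07% and that of Ly6c2 5.05% of the rise of the marker, beside 6.51% for Serpina3g and 9.62% for Hpse. The part of TAM RNA in the Tumor-AM values was not tested.

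**Figure D4:**
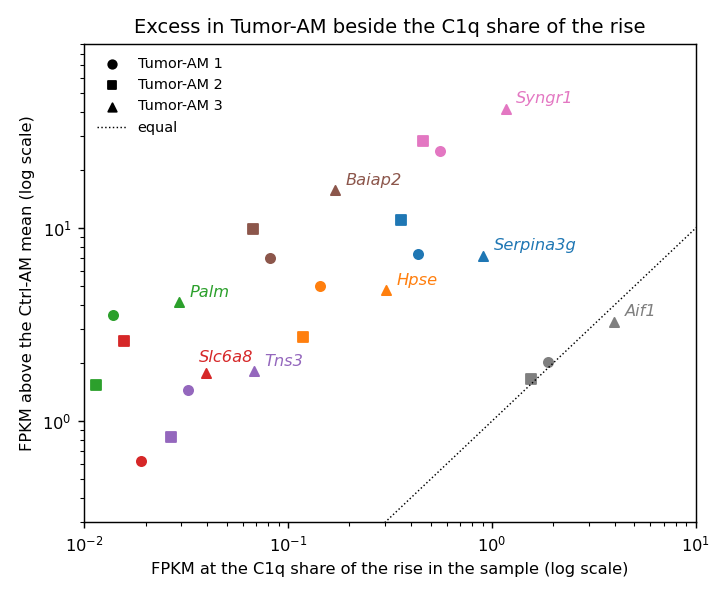
FPKM of each gene above the Ctrl-AM mean in the 3 Tumor-AM samples (y axis) beside the rise of the gene from Ctrl-AM to Tumor-macrophage times the share of the C1q rise in that sample (x axis), both on log scales, with a color for each gene and a shape for each sample; the dotted line marks equality. Aif1 lies close to the line, above it in 2 of 3 samples, and the other 7 genes lie above it in every sample. The genes were chosen as raised in Tumor-AM, so nothing follows from their place above the line.

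The Tumor-AM samples did not rank the genes alike. Tumor-AM 3 was highest for 5 of 8 genes (Palm, Tns3, Baiap2, Syngr1 and Aif1), Tumor-AM 2 for Serpina3g and Slc6a8, and Tumor-AM 1 for Hpse. Tumor-AM 3 also had the highest C1q sum and the highest sum of 5 fibroblast markers, all detected. That sum ran from 7.93 to 49.1 FPKM over Tumor-AM, from 3.13 to 6.03 over Ctrl-AM and from 6.00 to 9.24 over Tumor-macrophage. In Tumor-AM 3, Dcn was at 25.7 and Col3a1 at 21.0 FPKM, with Ctrl-AM means of 2.52 and 1.13, and Col1a2 was at or under 0.562 in each Tumor-AM sample. The part of fibroblast RNA in the values of Tumor-AM 3 was not tested. Coefficients of variation over the Tumor-AM samples ran from 24.0% (Aif1) to 54.3% (Slc6a8).

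Over the 9 samples, Pearson correlations of log2(FPKM + 1) between the 8 genes ran from 0.704 for Palm and Aif1 to 0.996 for Hpse and Tns3, with a median of 0.943 over 28 pairs. The points share 3 group means, on which the genes were chosen, so that these values describe the common order of the groups. The genes most like the mean of the 8 were H2-Q5 (r = 0.998), Procr (0.997), Got1 (0.996), Pmp22 (0.995), H2-K1 (0.995), Mmp14, Gm5424, Trem2, Pstpip1 and Tapbp, the last with an r of 0.9925. Of 5971 genes compared, 13.6% had an r over 0.9. H2-Q5 and H2-K1 encode MHC class I heavy chains, and Tapbp encodes tapasin, which helps load them with peptide. H2-K1 was at 611.5 ± 57.2, 1060 ± 45.8 and 2268 ± 158.2 FPKM in Ctrl-AM, Tumor-AM and Tumor-macrophage (SD, n = 3 each). For single genes, the closest were Adora2b for Serpina3g, Rab31 for Hpse, Gadd45a for Palm, Wfdc17 for Slc6a8, Sema4d for Tns3, Pdpn for Baiap2, Fam20c for Syngr1 and Dnajc15 for Aif1.

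Relatives and partners of the 8 genes, in lists that leave out the members, were then tested. The lists were chosen with earlier results of these data known. Nothing follows, therefore, from their counts beside those of all genes. Of 145 listed genes, 98 passed the filter. In Tumor-AM compared with Ctrl-AM, 18 were higher and 1 was lower at a limma adjusted p under 0.05, or 18.4% and 1.02%, while over all genes 7.11% were higher and 3.18% lower. The median log2 change was 0.148 over the lists and 0.0142 over all genes. By list, 42.9% of serpins and cathepsins, 22.7% of heparan sulfate genes and 50% of creatine genes were higher in Tumor-AM. It was 0% for tensins, 6.25% for I-BAR genes, 9.09% for synaptogyrins and 20% for actin bundling. The count of 18 was 8 without Ctrl-AM 3, 9 without Ctrl-AM 1 and 11 without Tumor-AM 3. Of the 18, Serpina3f and Sdc1 had no Ctrl-AM sample at 1 FPKM or more, and Sdc4 had 2. These genes passed the filter only with the help of the tumor-bearing groups, in which they were high, so nothing further is drawn from their calls. In Tumor-macrophage compared with Tumor-AM, 51 were higher and 18 lower, or 52.0% and 18.4%, against 24.2% and 24.4% of all genes. Of the 18 genes higher in Tumor-AM, 14 were higher again in Tumor-macrophage, and the 2 comparisons share the Tumor-AM samples. The same share over all 760 genes higher in Tumor-AM was not counted, so nothing follows from the 14. All 18 had a mean excess above the level taken from C1q, on the same terms as for the 8 genes. For Ctsk, whose Tumor-macrophage mean lay below that of Ctrl-AM, that level was negative. The 18 were picked for being higher in Tumor-AM, so nothing follows from this count.

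Among serpins, cathepsins and cystatins, 6 of 14 tested genes rose in Tumor-AM and 0 fell (limma, with 7 higher and 2 lower at an unadjusted p under 0.05). Serpina3f, a neighbour of Serpina3g with shared sequence, was at 0, 0.195 and 0 FPKM in the Ctrl-AM samples, 1.29, 1.22 and 0.571 in those of Tumor-AM, and 24.9, 22.4 and 16.4 in those of Tumor-macrophage. Its log2 change in Tumor-AM was 0.91 ± 0.19 (SE; limma adjusted p = 0.0146), a call lost in 3 of 18 alternatives. Serpina3n and the other listed members of the clade stayed below the filter. Ctsb, a lysosomal protease, rose from 496.8 to 735.5 FPKM (log2 change 0.56 ± 0.080, SE, limma adjusted p = 0.00222), and Ctsl rose by 0.62 ± 0.10 (limma adjusted p = 0.00411). The calls of Ctss and Cstb, a lysosomal protease and a cystatin, were lost in 5 and 10 of 18 alternatives. Ctsk rose in Tumor-AM, by 0.87 ± 0.20 (limma adjusted p = 0.0234, lost in 6 of 18 alternatives), and was lower in Tumor-macrophage by a log2 change of -3.93, unlike Serpina3g. In Tumor-macrophage, 9 of the 14 were higher than in Tumor-AM and 3 lower.

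For heparan sulfate, the substrate of heparanase, 5 of 22 tested genes rose in Tumor-AM and 1 fell. Syndecans, the cell-surface carriers of these chains, led the list. Sdc1 was at 0.457, 0.276 and 0.276 FPKM in the Ctrl-AM samples, 1.82, 1.204 and 3.74 in those of Tumor-AM, and 14.2, 16.4 and 16.2 in those of Tumor-macrophage. The log2 changes in Tumor-AM were 1.21 ± 0.23 for Sdc1, 1.34 ± 0.27 for Sdc4 and 0.77 ± 0.11 for Sdc3 (SE, limma adjusted p = 0.00954, 0.0126 and 0.00271), and the call of Sdc4 was lost without Ctrl-AM 3 (limma adjusted p = 0.0505). Serglycin (Srgn), the proteoglycan of secretory granules, rose by 0.46 ± 0.080 (limma adjusted p = 0.00565). Naglu, a lysosomal enzyme that breaks down these chains, rose by 0.36 (limma adjusted p = 0.0366, lost in 12 of 18 alternatives). Gpc3 was the gene that fell, with a log2 change of -0.84 and a limma adjusted p of 0.0482, lost in 11 of 17 alternatives. Hpse2, the relative of Hpse, was at 0 FPKM in all samples. In Tumor-macrophage, 15 of the 22 were higher than in Tumor-AM and 3 lower.

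In the creatine list, 2 of 4 tested genes rose in Tumor-AM. Ckb, the brain-type creatine kinase, was at 4.81, 5.73 and 4.16 FPKM in the Ctrl-AM samples, 14.4, 13.8 and 21.5 in those of Tumor-AM, and 180.7, 177.2 and 167.0 in those of Tumor-macrophage. It rose by 1.55 ± 0.16 (SE, limma adjusted p = 0.000379) and then by 3.35 ± 0.16. Gatm, which makes the precursor of creatine, rose by 1.03 ± 0.16 (limma adjusted p = 0.0038) and then by 4.90 ± 0.16. Like Slc6a8, both were separate between the groups at each step. Gamt, which completes creatine synthesis, changed by 0.21 in Tumor-AM (limma adjusted p = 0.22) and by -0.19 in Tumor-macrophage (limma adjusted p = 0.131).

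Relatives of the other members are given next. In the list of tensins and focal adhesion genes, 0 of 16 passed in Tumor-AM by limma (4 higher and 1 lower at an unadjusted p under 0.05), and in Tumor-macrophage 9 were higher and 3 lower. Tns1 was at 14.8 ± 0.42, 12.6 ± 0.55 and 3.18 ± 0.62 FPKM in the 3 groups (SD, n = 3 each), with a log2 change of -1.71 from Tumor-AM to Tumor-macrophage (limma adjusted p = 5.62e-07), in the direction opposite to Tns3. Among I-BAR and WAVE genes, 1 of 16 rose in Tumor-AM, the GTPase gene Rac2 (0.36 ± 0.072, limma adjusted p = 0.0121, lost in 2 of 18 alternatives). That share, 6.25%, was near the 7.11% of all genes. Baiap2l1, the relative of Baiap2, changed by -0.093 in Tumor-AM (limma adjusted p = 0.731) and rose by 0.47 in Tumor-macrophage (limma adjusted p = 0.0152).

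Among synaptogyrins and vesicle SNAREs, 1 of 11 rose in Tumor-AM, Stx11 (0.67 ± 0.17, limma adjusted p = 0.0349, lost in 7 of 18 alternatives). This 9.09% was also near the 7.11% of all genes. Syngr2, the broadly expressed relative of Syngr1, was at 196.8 ± 4.44, 204.0 ± 7.41 and 292.2 ± 14.8 FPKM (SD, n = 3 each). Its log2 change was 0.051 in Tumor-AM (limma adjusted p = 0.683), and it rose by 0.52 in Tumor-macrophage (limma adjusted p = 6.27e-05). In the list of actin-bundling genes around Aif1, 3 of 15 rose in Tumor-AM (Pls3, Actn4 and Coro1c), with calls lost in 15, 3 and 7 of 18 alternatives. Of these, Actn4 rose by 0.36 ± 0.073 (SE, limma adjusted p = 0.0116) and changed by -0.0088 in Tumor-macrophage (limma adjusted p = 0.931). Aif1l and the 3 paralemmin relatives Palm2, Palm3 and Palmd did not pass the filter.

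**Figure D5:**
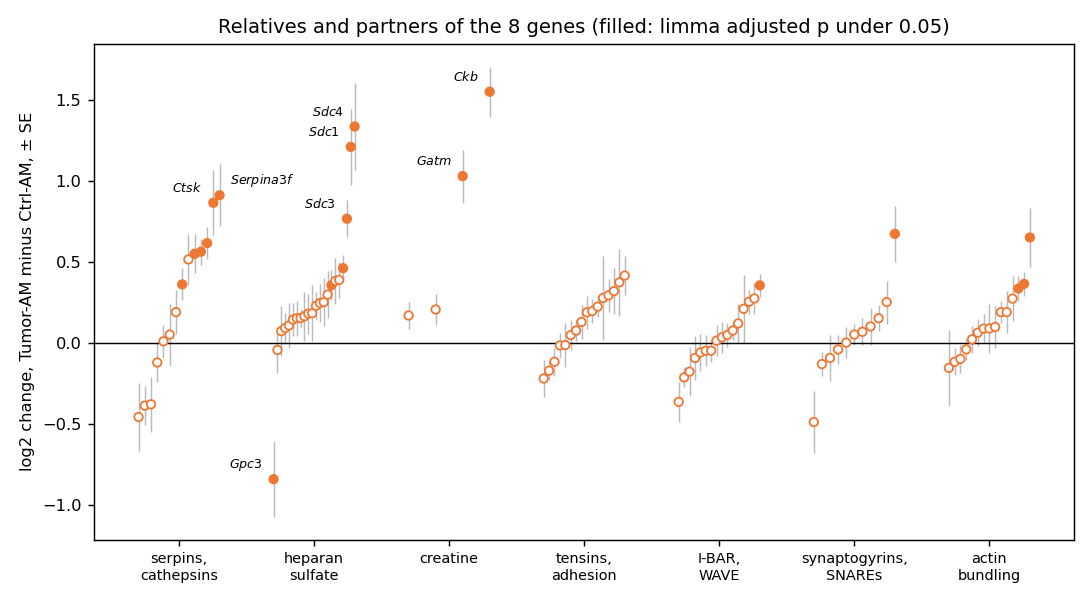
Log2 change from Ctrl-AM to Tumor-AM (± SE of the fit, on log2(FPKM + 1)) of the 98 tested relatives and partners, in 7 lists; filled points have a limma adjusted p under 0.05. Filled points are 18 above and 1 below 0, with Ckb at 1.55, Sdc4 at 1.34 and Sdc1 at 1.21.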

How the data were processed

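RNA sequencing was analysed for 9 samples, 3 groups of 3, taken from the labels. According to their methods and the labels, the authors made full-length cDNA (SMART-Seq HT, Nextera), mapped 75-base single-end reads to mm10 with TopHat2 2.1.1 and Bowtie2, and deposited FPKM per gene symbol (Cufflinks, or Cuffdiff 2.2.1 in the submitters' processing notes). Annotation, multi-mapped reads and strand were not given in the sources used here, so values of overlapping or near-identical genes are uncertain. Depth was estimated from low FPKM of genes with 1 transcript, as the lowest depth within 85% of the best fit; 65.6% to 70.5% of values under 4.5 reads lay within 0.04 of a whole read. A multiple of that depth could also fit such values, so it is approximate, and it covers counting error only.

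Group means of log2(FPKM + 1) were fitted with limma 3.58.1 (R 4.3.3, intensity trend, all 9 samples) over 10686 genes, two-sided, with Benjamini-Hochberg adjustment and a threshold of 0.05. On simulated data for Tumor-AM against Ctrl-AM (10686 genes, 200 of them changed), the fit recovered 95% of 2-fold and 100% of 4-fold changes. Of its calls, 5.8% were unchanged genes. The simulation used normal noise with the Ctrl-AM spread in every group, and changes on the log2(FPKM + 1) scale. Changes were placed only in genes with a Ctrl-AM mean above 2 on that scale. These rates therefore do not cover genes lower in Ctrl-AM, Sdc1, Sdc4 and Serpina3f among them. The 8 genes were selected on these samples and got no test. Genes named are the 8, members of the lists (those past the threshold and closest relatives first), the markers and the genes most alike in Pearson correlation with a mean of at least 10 FPKM in some group. A gene of the marker lists is not reported here. The members and lists were chosen with earlier results of these data known. A figure legend of the study gives 3 mice for each population, and p-values measure the spread between those samples. Shares are ratios of group means with propagated SE. Loci and shared windows came from GENCODE vM21, promoters from RefSeq. Python 3.11.15, numpy 2.4.6, pandas 2.3.3 and matplotlib 3.10.9 were used. Alternatives were a pseudocount of 0.1, other filters (none, or 5 FPKM), TPM, median-ratio and quantile scaling, a constant prior variance, 2 groups only, a threshold of 0.01, medians, a replicate block and leaving out each sample.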

Additional observations from a re-analysis of the deposited data

How the results depend on the processing

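No member changed direction at either step under any alternative run. The count of members rising without overlap at both steps was 7 under each scaling and 7 to 8 when single samples were left out. The median share of 18.1% ran from 15.6% to 20.0% when single samples were left out, and was 19.4% after TPM rescaling, which moved the median log2 change of all genes to -0.109 in Tumor-AM compared with Ctrl-AM. Of the family genes, 18 were higher in Tumor-AM, 7 at an adjusted p under 0.01, and 8 to 19 when single samples were left out, lowest without Ctrl-AM 3 (8), Ctrl-AM 1 (9) and Tumor-AM 3 (11). The 1 lower gene became 0 with a pseudocount of 0.1, no filter, a constant prior variance or an adjusted p under 0.01, 2 with median-ratio scaling or only 2 groups in the fit, 3 with quantile normalization and 6 after TPM rescaling, and 0 to 2 when single samples were left out; the cause was not tested. In Tumor-macrophage compared with Tumor-AM, 44 to 52 were higher and 17 to 21 lower over the alternatives, with 48 to 51 and 17 to 20 when single samples were left out. About their group means, same-numbered samples had correlations of 0.0789, 0.159 and -0.0615 between Ctrl-AM and Tumor-AM. Between Tumor-AM and Tumor-macrophage these correlations were 0.026, 0.0964 and 0.109. Samples of different numbers were not compared, so these values cannot tell whether the numbers pair samples of the same mice. With the replicate number as a block, 16 family genes were higher and 1 lower in Tumor-AM, and 51 higher and 18 lower in Tumor-macrophage; 17 of 19 and 68 of 69 calls were shared with the fit without the block. Ckb, Gatm, Ctsb, Ctsl, Sdc1, Sdc3 and Srgn kept their calls in Tumor-AM in all 18 alternatives. In the Ctrl-AM samples an estimated 5.43 to 27.4 reads lay behind each value of Serpina3g, Hpse, Palm, Slc6a8, Tns3 and Aif1, and 45.4 or more behind those of Baiap2 and Syngr1.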
